A study of Mus musculus with 11 samples.

Results

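The regions described here are stretches of open chromatin at gene boundaries that naive alveolar macrophages shared with macrophages of lungs 15 days after tumour cell transfer, and that lacked a peak at day 30. They were chosen by the peak calls themselves: the ATAC-seq peaks of 3 lists were merged wherever they shared at least 1 bp, and a region was kept when it held a naive peak and a day 15 peak, held no day 30 peak, and lay within 1000 bp of either end of a RefSeq gene on the mm10 build. Of 16069 merged regions, 3326 (20.7%) met these conditions, and they are called the members below. Being present at naive and day 15 and absent at day 30 is therefore the choice itself and not a finding.

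The cells, resident macrophages of the alveoli, had been sorted from lung tissue of C57BL/6 mice in 3 groups. Naive mice gave 4 samples. The other mice had received KP lung tumour cells through the tail vein, cells that form tumour foci in the lung, and gave 4 samples at day 15 and 3 samples at day 30 after the transfer. The tumours thus came from an injected, cultured line and were not of the animal's own lung, and 1 list of peaks stands for all samples of a group. No difference between groups below has a replicate error or a p-value. The intervals given are 95% Wilson intervals, which cover counting error over regions or genes only.

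An accessible gene start is usually a stretch free of nucleosomes where RNA polymerase and general transcription factors assemble. In mammals most starts of widely expressed genes lie in CpG islands, sequences rich in the dinucleotide CpG that tend to be accessible in every cell type, while many genes specific to a cell type start in CpG-poor sequence and open only where the right factors are bound. Alveolar macrophages are the resident phagocytes of the airspace; they depend on GM-CSF and TGF-beta signals, clear surfactant and express MHC class II molecules.

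The sequences before 8 member starts show the kinds of promoter in the set. The first group holds the starts of the strongest members: Grhl1 and Fggy led by the naive peak, and Dusp6 and Tspan14 by the day 15 peak. Each line gives the 250 bases before the annotated start, 5′ to 3′ in the direction of the gene, from RefSeq on the GRCm38.p6 assembly, which is the mm10 build. Capitals mark matches, on either strand, to a GC box, a CCAAT box, an ETS site, an interferon-stimulated response element (ISRE) or an NRF1 site, whose letters are given with their counts over all members. The stretches are chr12:24572037-24572286 (plus strand) for Grhl1, chr4:95557257-95557506 (plus strand) for Fggy, chr10:99262981-99263230 (plus strand) for Dusp6 and chr14:40966897-40967146 (minus strand) for Tspan14.
Grhl1: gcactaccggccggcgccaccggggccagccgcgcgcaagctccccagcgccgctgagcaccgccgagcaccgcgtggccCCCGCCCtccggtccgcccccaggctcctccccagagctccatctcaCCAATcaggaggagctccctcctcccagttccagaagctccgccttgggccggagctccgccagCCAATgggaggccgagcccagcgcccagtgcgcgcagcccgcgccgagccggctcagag
Fggy: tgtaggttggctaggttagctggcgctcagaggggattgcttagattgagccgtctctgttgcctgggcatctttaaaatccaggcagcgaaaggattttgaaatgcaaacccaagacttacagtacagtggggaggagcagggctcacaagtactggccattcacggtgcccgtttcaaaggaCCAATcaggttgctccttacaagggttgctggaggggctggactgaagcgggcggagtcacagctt
Dusp6: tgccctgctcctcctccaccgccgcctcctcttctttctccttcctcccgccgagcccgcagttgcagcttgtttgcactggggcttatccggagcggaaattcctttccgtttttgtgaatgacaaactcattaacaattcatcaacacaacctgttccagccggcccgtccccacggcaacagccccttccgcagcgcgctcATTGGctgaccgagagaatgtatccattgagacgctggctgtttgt
Tspan14: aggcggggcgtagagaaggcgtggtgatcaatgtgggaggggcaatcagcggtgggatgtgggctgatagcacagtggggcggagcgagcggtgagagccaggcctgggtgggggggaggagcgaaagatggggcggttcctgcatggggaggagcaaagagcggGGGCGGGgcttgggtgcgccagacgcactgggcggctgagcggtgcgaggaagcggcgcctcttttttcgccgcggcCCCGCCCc

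The second group holds the starts of the leading member gene of each of 4 macrophage and immune gene lists: Rfxank for MHC class II, Stat2 for the interferon response, Cebpb for alveolar macrophage identity and Mertk for general macrophage genes. The stretches are chr8:70139198-70139447 (minus strand) for Rfxank, chr10:128270248-128270497 (plus strand) for Stat2, chr2:167688665-167688914 (plus strand) for Cebpb and chr2:128698665-128698914 (plus strand) for Mertk, written and capitalised in the same way.
Rfxank: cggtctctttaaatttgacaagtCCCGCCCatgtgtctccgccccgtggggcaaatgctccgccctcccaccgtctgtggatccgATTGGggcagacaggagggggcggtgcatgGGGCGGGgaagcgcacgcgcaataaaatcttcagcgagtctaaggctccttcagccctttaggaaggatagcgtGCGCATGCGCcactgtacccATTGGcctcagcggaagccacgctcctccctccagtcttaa
Stat2: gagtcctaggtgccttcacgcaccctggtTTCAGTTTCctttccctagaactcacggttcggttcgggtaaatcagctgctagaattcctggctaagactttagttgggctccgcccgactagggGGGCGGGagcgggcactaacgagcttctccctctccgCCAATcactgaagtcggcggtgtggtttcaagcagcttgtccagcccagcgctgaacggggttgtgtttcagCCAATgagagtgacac
Cebpb: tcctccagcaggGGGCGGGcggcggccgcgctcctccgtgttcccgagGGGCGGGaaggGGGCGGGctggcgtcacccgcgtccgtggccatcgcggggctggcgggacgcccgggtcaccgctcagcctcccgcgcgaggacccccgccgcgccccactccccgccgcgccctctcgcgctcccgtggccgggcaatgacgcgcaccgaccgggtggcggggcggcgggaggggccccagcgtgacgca
Mertk: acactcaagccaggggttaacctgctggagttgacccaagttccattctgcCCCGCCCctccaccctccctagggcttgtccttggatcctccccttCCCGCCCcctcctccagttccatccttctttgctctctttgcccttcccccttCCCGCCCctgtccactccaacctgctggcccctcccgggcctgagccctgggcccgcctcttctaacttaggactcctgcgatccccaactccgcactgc

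The promoters differed in composition. Over the 300 bases around the start (250 before and 50 after), GC content was 80.7% at Cebpb, 75.3% at Grhl1 and 56.0% at both Fggy and Rfxank. The ratio of observed to expected CpG was 1.03 at Cebpb and 0.865 at Grhl1, and it was 0.446 at Fggy and 0.498 at Mertk, so these 8 starts included CpG-rich and CpG-poor promoters. Counted from the start, with the start as 0 and each match given by its leftmost base, Grhl1 held CCAAT boxes at -123 and -59, Stat2 at -88 and -16, and Fggy at -66. Stat2, which encodes a subunit of the interferon-activated factor that binds ISREs, held an ISRE match at -221. Rfxank, a subunit of the complex that binds MHC class II promoters, held overlapping NRF1 matches at -61 and -59 between CCAAT matches at -165 and -41. Cebpb and Mertk held 3 GC boxes each and no CCAAT box. A match is a string of letters in this window and says nothing of whether a factor was bound.

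The members covered 1521 kb in all, with a median width of 432 bp (quartiles 352 and 538). Boundary regions found in all 3 lists were wider, with a median of 626 bp, and boundary regions of the naive list alone narrower, with 268 bp. Nearly every member was a simple pair: 3255 of the 3326 held exactly 1 naive and 1 day 15 peak. The summits of the naive and day 15 peaks lay a median of 34 bp apart, and 82.0% of members had summits within 100 bp of each other. Summits in the regions of all 3 lists lay a median of 35 bp apart. Since a shared region needs overlapping peaks, close summits follow largely from the choice of regions.

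**Figure D1:**
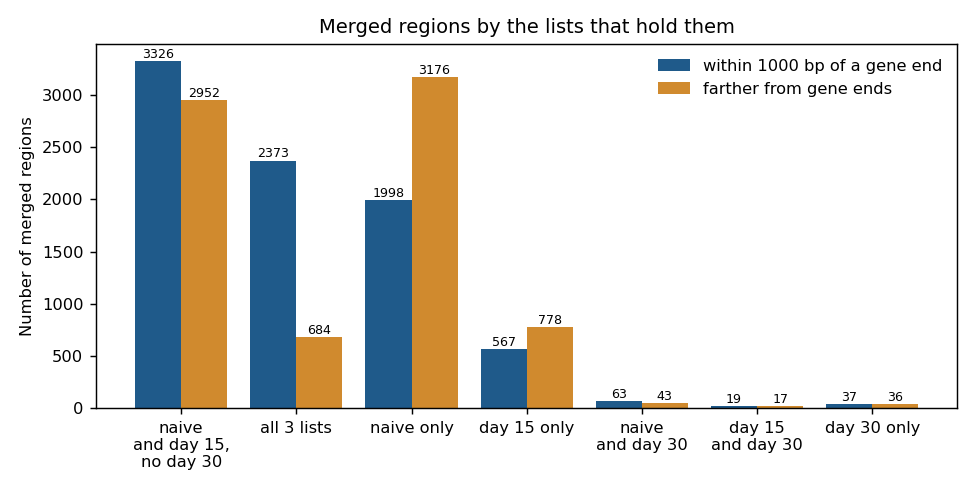
Number of merged regions by the lists that hold them, for regions within 1000 bp of a gene end (blue) and farther away (orange). The 3326 members are the tallest blue bar, above the 2373 boundary regions in all 3 lists and the 1998 of the naive list alone, while away from boundaries the naive-only class is largest with 3176.

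Among the 5699 boundary regions that naive and day 15 shared, the members were 58.4%, and the remaining 2373 also held a day 30 peak. Away from gene boundaries the share without a day 30 peak was larger, 2952 of 3636 regions (81.2%, interval 79.9 to 82.4, against 57.1 to 59.6 at boundaries). By contrast, only 63 boundary regions held naive and day 30 peaks without a day 15 peak, and 19 held day 15 and day 30 peaks without a naive peak. The day 30 list was short, 3352 peaks against 14731 in the naive and 10861 in the day 15 list, so it bounds how many regions could be in all 3 lists. With each list cut to its 3352 strongest peaks, 464 members were left and the share at boundaries was 24.9%.

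Strength was read as the summit pileup, the number of tags stacked at the peak's highest point as the peak caller counted them, which was recovered from the deposited fold and p-value of each peak. Members had a median naive pileup of 17 tags (quartiles 13 and 22, range 6 to 56) and a median day 15 pileup of 19 tags (quartiles 16 and 23, range 10 to 49). They lay between the other boundary classes. Regions in all 3 lists had medians of 28 naive and 29 day 15 tags, regions of the naive list alone had 12 naive tags, and regions of the day 15 list alone had 15 day 15 tags. These pileups decide whether a peak is called, so the order of the classes is a description of the choice and has no test. Across the 3326 members the naive and day 15 pileups had a Spearman correlation of 0.57, and the local backgrounds of the same peaks, which share gene surroundings and mappability, one of 0.68.

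**Figure D2:**
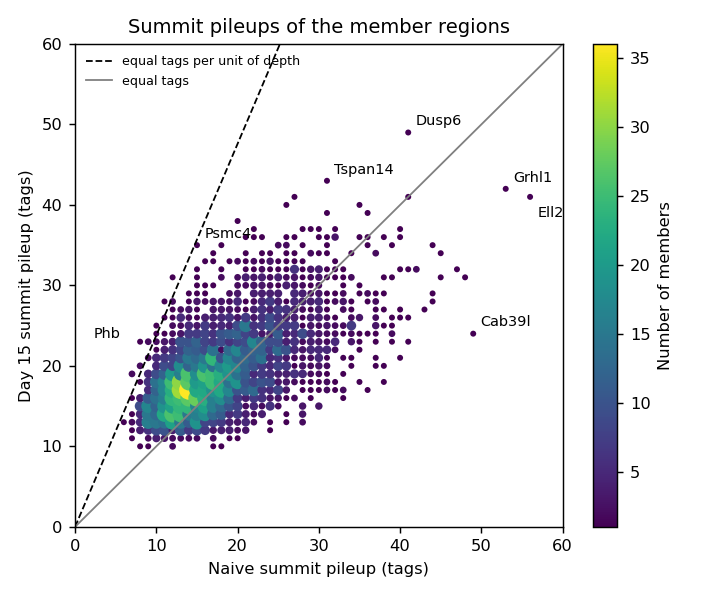
Naive (x axis) against day 15 (y axis) summit pileup in tags for the 3326 members, 1 point per pair of values, with colour and size giving the number of members. The grey line marks equal tags and the dashed line equal tags per unit of depth, and only 11 members lie on or above the dashed line, among them Phb.

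Depth differed between the lists and sets the scale of these values. The genome-wide background of the lists corresponded to 39.2 tags per 10 kb in naive, 93.5 at day 15 and 82.2 at day 30, so the day 15 list rests on 2.38 times the naive depth. With day 15 pileups scaled to the naive depth, the median member had 0.46 times its naive pileup (quartiles 0.38 and 0.57), and 3315 of the 3326 members (99.7%) were below their naive pileup. The same was true of the boundary regions of all 3 lists, with a median of 0.41 and 99.7% below, so the lower scaled pileup at day 15 was not particular to the members. Background tags enter this scaling, and a difference in the share of tags that fall in peaks cannot be told apart here from a difference in accessibility at each region. In bulk samples, fewer cells with an open region and less opening per cell cannot be told apart either.

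The day 30 list had nearly the depth of the day 15 list, a ratio of 0.879. Scaled to the day 30 depth, the day 15 pileup of the members had a median of 16.7 tags (quartiles 14.1 and 20.2), and that of the regions in all 3 lists 25.5 tags. The peaks called at day 30 had a median of 17 tags, a lowest value of 9 and a 10th percentile of 13. Of the members, 2847 (85.6%) had a scaled day 15 pileup at or above 13 tags and 1504 (45.2%) at or above 17. The day 15 pileups of most members, at the day 30 depth, thus lay within the range of pileups called at day 30. At day 30 itself, however, the boundary regions in all 3 lists had a median of 17 tags (quartiles 15 and 21). This was below their scaled day 15 median of 25.5, so scaled day 15 pileups do not give the pileups at day 30. The day 30 pileup of a region without a day 30 peak was not analysed here, so its size is unknown.

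The limits of the choice can be read from single regions. Among the member peaks with the lowest day 15 -log10 q were those at Dnajc4, with 11 day 15 tags and a -log10 q of 1.70, and at Ncbp1, with 10 tags and 1.87. On the other side, the weakest day 30 peaks that kept regions out were at Cnih1, with 9 day 30 tags and a -log10 q of 1.58, at Arl5b, with 10 tags and 1.92, and at Irf2bpl, with 13 tags and 2.00. The members closest to the distance limit were at Neurl3, 1000 bp from an end of the gene, at 2310008N11Rik, 998 bp, and at Dcaf10, 993 bp. The nearest regions outside the limit lay 1003, 1007 and 1009 bp from an end of a gene, with 20 to 25 naive tags. A day 30 peak lay within 500 bp of 55 members and within 1000 bp of 80 (2.41%), so few members were near misses by position.

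The strongest members by the naive peak were at genes of unlike function. At Grhl1, a grainyhead-family transcription factor known from epithelia, the region chr12:24571942-24572428 held 53 naive tags (-log10 p 47.6) and 42 day 15 tags (-log10 p 35.4), with both summits at the same base, 99 bp before the start. Fggy, a carbohydrate kinase gene, held 45 naive and 34 day 15 tags at chr4:95557275-95557711. Ell2, an elongation factor of RNA polymerase II, held 56 and 41 tags at chr13:75707023-75707723, the highest naive pileup of any member. Grhl1 was the leading member in both lists, and it is a gene of epithelia more than of macrophages.

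Cab39l, a scaffold of the LKB1 kinase complex, had 49 naive but 24 day 15 tags, a scaled ratio of 0.21 against the median of 0.46. The region at Cab39l also lay at a boundary of Setdb2. Ttk, a kinase of the spindle checkpoint, had 39 and 23 tags and a ratio of 0.25. The others of the naive leaders were Vrk2, a protein kinase, with 47 and 32 tags, Arl14ep with 44 and 28, Ski, a repressor of SMAD signalling, with 48 and 31, Rnf20, a ubiquitin ligase for histone H2B, with 45 and 31, and Spring1, a regulator of the SREBP sterol pathway, with 44 and 29. In all 10 naive leaders the scaled day 15 pileup was below the median ratio of the members, from 0.21 to 0.33, and they were ranked by the naive value.

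The day 15 leaders were a different set apart from Grhl1. Dusp6, a phosphatase that switches off ERK, had the highest day 15 pileup of any member, 49 tags, over 41 naive tags at chr10:99262920-99263383. Tspan14, a tetraspanin that partners the protease ADAM10, had 43 day 15 and 31 naive tags at chr14:40966731-40967415. Psmc4, an ATPase of the proteasome, had 35 day 15 tags over 15 naive tags, a scaled ratio of 0.98. Further leaders, Wdr47, Ect2 (needed for the final step of cell division), Ddx39a (an RNA helicase), Aen (a nuclease induced by p53) and Ccdc126, held 34 to 37 day 15 and 23 to 35 naive tags.

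Of the 11 members that had at least their naive pileup at day 15 after scaling, chosen here after their values were seen, Phb, a prohibitin of the inner mitochondrial membrane, was highest with 8 naive and 23 day 15 tags and a ratio of 1.21. Ints14, a subunit of the Integrator complex, and Gtf2h4, a subunit of the transcription factor TFIIH, each had 7 and 19 tags. The others included the ribosomal protein gene Rpl41 with 11 and 28 tags, the SWI/SNF subunit gene Smarcc1 with 9 and 23, and the X-linked helicase gene Ddx3x with 8 and 20. All 11 had low naive pileups, of 7 to 12 tags, where 1 tag moves the ratio most. The widest members, also among the named ones, were at Zfat (1092 bp), Gstcd (1082 bp) and Stam2 (1047 bp), each with 20 to 23 naive tags.

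Most members lay at starts. Of the 3326, 2443 (73.5%) were within 1000 bp of an annotated start only, 180 (5.41%) of a start and an end, and 131 (3.94%) of an end only, and for 572 the strand was not in the promoter table. Among the 3252 members outside chromosome 18, whose starts were not used here, 2249 (69.2%, interval 67.5 to 70.7) covered an annotated start. The same share was 81.6% for the boundary regions of all 3 lists and 47.3% for those of the naive list alone. Starts of 2 genes facing away from each other within 1000 bp were held by 12.9% of members and 22.4% of the regions in all 3 lists. The gene that names the member was protein-coding for 2984 (89.7%) and a long noncoding RNA for 263 (7.91%). Outside chromosome 18, 925 members (28.4%) lay at 2 or more genes. The tags of such a region cannot be assigned to a single gene, and it is named here by one of them.

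The starts that members covered were mostly CpG-rich. A start was counted as CpG-rich when the 300 bases around it had over 50% GC and an observed to expected CpG ratio over 0.6. By that rule 1757 of 2249 covered starts (78.1%, interval 76.4 to 79.8) were CpG-rich, against 88.1% (86.5 to 89.5) in the regions of all 3 lists, 71.2% in the naive list alone and 33.3% of all 32851 starts in the table. The median GC content was 61.7% for members, 63.7% for all 3 lists and 52.7% for all starts. Members thus stood between the weaker naive-only class and the regions of all 3 lists in sequence as they did in tags.

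Strength and CpG content were then considered jointly. The naive and day 15 regions, at boundaries and away, were ranked by the day 15 -log10 p and split into 5 bins of equal size, bounded at 8.81, 11.1, 13.8 and 18.3. At boundaries the share without a day 30 peak went from 89.1% in the weakest bin through 81.3%, 72.0% and 53.3% to 19.7% in the strongest. Away from boundaries it was higher in each bin: 94.5%, 92.2%, 82.3%, 68.0% and 38.3%. None of these pairs of intervals overlapped. The median day 15 -log10 p at boundaries and away was close in the weakest bin, 7.69 and 7.74, and in bin 4, 15.7 and 15.6. In the strongest bin it was higher at boundaries, 23.2 against 21.6, so strength was not fully matched there.

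Among boundary regions that covered a start, those at CpG-poor starts lacked a day 30 peak more often, 492 of 715 (68.8%, interval 65.3 to 72.1) against 1757 of 3402 (51.6%, 50.0 to 53.3) at CpG-rich starts. The order was the same within each bin of strength, at 94.3% against 85.8% in the weakest bin, 82.0% against 68.2% in the middle bin and 28.7% against 17.6% in the strongest. The intervals overlapped in the weakest bin, where 105 regions were CpG-poor, and did not in the other bins. The median day 15 -log10 p in the strongest bin was 22.9 for CpG-poor and 23.3 for CpG-rich starts. These shares describe 3 peak lists, and whether they would hold in other samples was not tested.

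**Figure D3:**
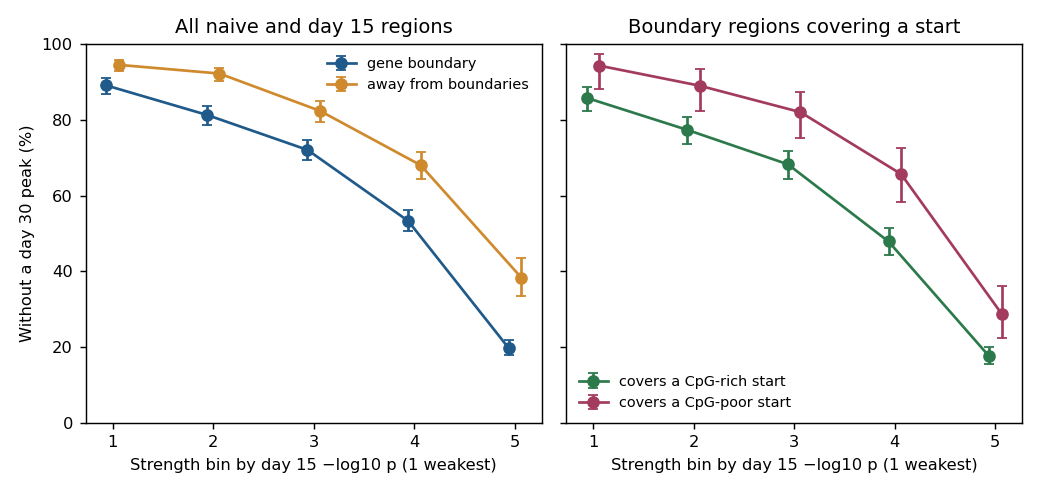
Share of naive and day 15 regions without a day 30 peak (y axis, percent) by bin of the day 15 -log10 p (x axis, 1 is weakest), at boundaries and away (left) and for boundary regions covering CpG-rich or CpG-poor starts (right), with 95% Wilson intervals. All 4 lines fall with strength, to 19.7% at boundaries and 38.3% away, and CpG-poor starts lie above CpG-rich ones in each bin.

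Short sequence motifs were counted in the 300 bases around each start, first over all starts of a class and then over its CpG-rich starts alone, since the classes differ in CpG content. A GC box (GGGCGGG), bound by SP and KLF factors, was in 53.2% of member starts, 59.0% of the starts in regions of all 3 lists and 25.6% of all starts. Among CpG-rich starts the GC box shares were close, 59.9% of member starts (interval 57.6 to 62.1), 62.6% in all 3 lists, 56.8% of all starts and 54.4% of starts in no region. A CCAAT box (those 5 letters), the site of NF-Y, was in 44.0% of member starts (interval 41.9 to 46.0), 51.9% (49.7 to 54.2) in all 3 lists, 36.9% in the naive list alone and 37.4% of all starts. Among CpG-rich starts it was in 42.2% of member starts, 51.2% in all 3 lists, 35.2% of all starts and 25.7% of starts in no region. Within each bin of strength, however, regions with a CCAAT box lacked a day 30 peak slightly more often than those without. The gap was widest in the middle bin, 74.3% against 68.6%, and the intervals overlapped in each bin. The lower share in members was thus not seen at equal strength. Regions with a GC box lacked a day 30 peak less often in bin 4, 46.7% (42.4 to 50.9) against 56.5% (51.7 to 61.2). The strongest bin had 16.6% against 22.8% and the weakest 86.3% against 88.7%. Bins 2 and 3 went the other way, 81.0% against 77.8% and 71.4% against 70.6%. An ETS site (CCGGAAG) was in 23.3% of member starts, 22.2% in all 3 lists and 8.86% of all starts, and among CpG-rich starts in 25.8%, 23.2% and 19.2%, with 11.7% of those in no region. An NRF1 site (GCATGCGC) was in 6.54%, 7.39% and 2.71%, and a YY1 site (AAGATGGCG) in 3.38%, 3.91% and 1.40%, in the same order. Among CpG-rich starts these became 7.63%, 7.48% and 6.29% for NRF1 and 3.87%, 4.26% and 3.45% for YY1.

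Motifs of inducible and lineage factors were compared in the same way. An ISRE match (GAAANNGAA) was in 5.78% of member starts and 8.56% of all starts, an AP-1 site (TGANTCA) in 4.09% and 7.81%, an NF-kB site (GGGANTTTC) in 1.02% and 1.11%, a C/EBP site (TTGCNNAA) in 7.47% and 10.8%, and the longer ETS site typical of the macrophage factor PU.1 (GAGGAAGT) in 3.47% and 3.20%. A TATA box (TATAAA) was in 5.47% against 13.6%. In the regions of all 3 lists the shares were 5.78% for the ISRE, 4.50% for AP-1, 0.910% for NF-kB, 8.57% for C/EBP, 3.69% for the PU.1-type site and 4.71% for the TATA box. Where members were below all starts, these regions were too, so the lower shares were not particular to the members. Among CpG-rich starts the same shares in members and in all starts were 4.61% and 5.20% for the ISRE, 2.85% and 3.21% for AP-1, 0.911% and 0.722% for NF-kB, 5.92% and 5.80% for C/EBP, 2.68% and 2.43% for the PU.1-type site and 4.21% and 4.55% for the TATA box. The intervals of members and all starts overlapped for each of these 6 motifs among CpG-rich starts. Motif searches used both strands, matches of different motifs could overlap, and windows of 300 bases were the same for all starts.

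By gene, 3422 of the 21887 protein-coding genes (15.6%) had a member at a boundary. Of 6029 protein-coding genes with a boundary region shared by naive and day 15, 3293 had no boundary region with a day 30 peak (54.6%), and 129 genes had a member and also another boundary region that was held at day 30. The 25 gene lists are read against this 54.6%, and with peak lists of equal length each had only 0 to 5 such genes left. The lists also differed in strength. The strongest shared region of a protein-coding gene had a median day 15 -log10 p of 14.2, and 29.0% of these genes had it in the strongest bin, and one or both values are given beside the lists farther from the background. The part of strength in a list's count was not tested.

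Genes of alveolar macrophage identity were among the members for 7 of 9 shared genes (77.8%, interval 45.3 to 93.7). Both chains of the GM-CSF receptor were in this set. Csf2ra, the alpha chain, had 2 member regions, one at its start with 16 naive and 23 day 15 tags and one 684 bp away with 24 and 23 tags, and Csf2rb, the beta chain, had 13 and 20 tags. Tgfbr2, a TGF-beta receptor, had 16 and 18 tags, while Tgfbr1, its partner, was in all 3 lists with 38, 24 and 18 tags in naive, day 15 and day 30. The receptor pair for TGF-beta was therefore split between the classes.

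Cebpb, a C/EBP transcription factor, had 29 naive and 32 day 15 tags over a day 15 background of 7.38 tags, against a member median of 2.46. Atp6v0d2, a subunit of the proton pump, had the lowest scaled ratio of this list, 0.28, with 27 naive tags and a scaled day 15 pileup of 7.55. Olr1, a scavenger receptor for oxidised lipoprotein, had 18 and 21 tags, and Cd2, an adhesion molecule that mouse alveolar macrophages carry, 16 and 15. None of the 9 shared genes had a region in the strongest bin, and their median day 15 -log10 p was 10.9. The nuclear receptor Pparg and the integrin Itgax had boundary regions in the naive list alone, and 14 of the 32 listed genes, among them Siglecf and Marco, had no boundary region in any list, so the identity genes at boundaries describe only part of the program.

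The general macrophage list had 8 of 10 shared genes among the members (80.0%, interval 49.0 to 94.3). Cd14, the co-receptor for lipopolysaccharide, was strongest by naive tags, with 31 and 29 at day 15. Mertk, a receptor for apoptotic cells, had 24 and 26 tags. Maf, a transcription factor of macrophages, had 26 and 23 at a site 906 bp from an end of the gene. Spi1, which encodes PU.1, had 14 and 19 tags 484 bp from an end of the gene. Lyz2, lysozyme of myeloid cells, had 13 and 23 tags, Ptprc, the leukocyte antigen CD45, 11 and 17, Runx1, a transcription factor of blood cells, 10 and 17, and the integrin gene Itgam 9 and 15.

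These 8 genes had a median scaled ratio of 0.61, against 0.47 over the protein-coding genes whose strongest shared region was a member. Their median naive pileup was also lower, 13.5 tags against 17. The chemokine list, with a median of 11 naive tags, had a ratio of 0.61 too. Of the 10 shared general macrophage genes, 1 had a region in the strongest bin. The 2 that were not members were Cebpa and Cd68. Cebpa, the C/EBP factor of myeloid cells, held 38, 46 and 22 tags in naive, day 15 and day 30, and Cd68 21, 25 and 13. Markers of monocyte-derived and interstitial macrophages gave 3 members of 4 shared genes, Maf, Itgam and the integrin gene Itgal, and 14 of its 20 genes, including Ccr2 and Cx3cr1, had no region in any list.

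Markers of other cell types were nearly absent from the boundary regions. Of 18 T and NK cell genes only Cd3d had a region, a member 262 bp from the gene's end with 12 naive and 19 day 15 tags, while Cd3e, Cd4 and Cd8a had none. Of 12 neutrophil genes, Mmp8 had a member 768 bp from its end with 22 and 14 tags, S100a8 was in all 3 lists, and Ly6g, Mpo and Elane had none. The 10 B cell genes and the 16 endothelial and fibroblast genes had no region in any list. Of the 20 genes of lung epithelium and tumour cells, only Muc1 had one, at day 15 alone. The labelled cell type thus rests here on the GM-CSF receptor and part of the general macrophage list, without boundary regions at Siglecf and Marco. Maf and Itgam of that list are also among the markers of monocyte-derived and interstitial macrophages. The boundary regions therefore do not tell alveolar macrophages apart from other macrophages. Of the 30 general macrophage genes listed, 14 had no boundary region in any list, 4 had one in the naive list alone and 1 at day 15 alone.

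MHC class II genes divided evenly, 4 of 8 shared genes (50.0%, interval 21.5 to 78.5), near the 54.6% of all genes. H2-Ab1, the beta chain of the I-A molecule, had 9 naive and 15 day 15 tags, and the peptide loading genes H2-DMb1 and H2-DMb2 had 12 and 14, and 12 and 11. Rfxank was the strongest of the 4 with 19 and 24 tags, in a region that also reached the start of Borcs8. The other 4 shared genes, H2-DMa and the promoter factors Rfxap, Nfya and Nfyb, were in all 3 lists, with 18, 31, 34 and 37 naive tags and 23, 19, 18 and 15 day 30 tags. The RFX complex was therefore divided, with Rfxank lacking a day 30 peak and Rfxap holding one. H2-Aa, H2-Eb1 and Cd74 had boundary regions at day 15 alone.

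MHC class I genes were members for 3 of 11 shared genes (27.3%, interval 9.75 to 56.6, which includes 54.6%), and 54.5% of the shared genes had a region in the strongest bin. The members were H2-M3, a nonclassical class I gene, with 19 and 25 tags, and the shared start of Psmb9 and Tap1, an immunoproteasome subunit and a peptide transporter that are transcribed away from the same region, with 16 and 19. The classical genes H2-K1 and H2-D1 and the light chain gene B2m were in all 3 lists.

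Interferon response genes were members for 14 of 18 shared genes (77.8%, interval 54.8 to 91.0), and Trim25 had a member beside a region of all 3 lists. Of the kinases, Jak1 had 32 naive and 23 day 15 tags and Tyk2 19 and 27, while Jak2 was in all 3 lists, as were the receptor genes Ifnar1 and Ifngr1. Of the factors that carry the signal to the nucleus, Stat2 had 27 and 26 tags and its partner Irf9 had 13 and 15.

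Irf1 and Irf2, an activator and a repressor of interferon genes, had 16 and 26, and 17 and 18 tags. Socs3, a feedback inhibitor of cytokine signalling, had 19 and 24. Among the effectors, Ifih1, a sensor of viral RNA, had 17 and 21, Bst2, which tethers virus particles, 14 and 17, Trim21, a receptor for antibody in the cytosol, 16 and 15, Samhd1, a dNTP hydrolase, 11 and 15, Ifi35 11 and 12, and Dtx3l, a ubiquitin ligase, 23 and 16. Of the 46 listed genes, 21 had no boundary region in any list, among them the strongly induced genes Isg15, Ifit1 and Mx1. The median day 15 -log10 p of the shared genes was 12.0, and 16.7% had a region in the strongest bin.

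**Figure D4:**
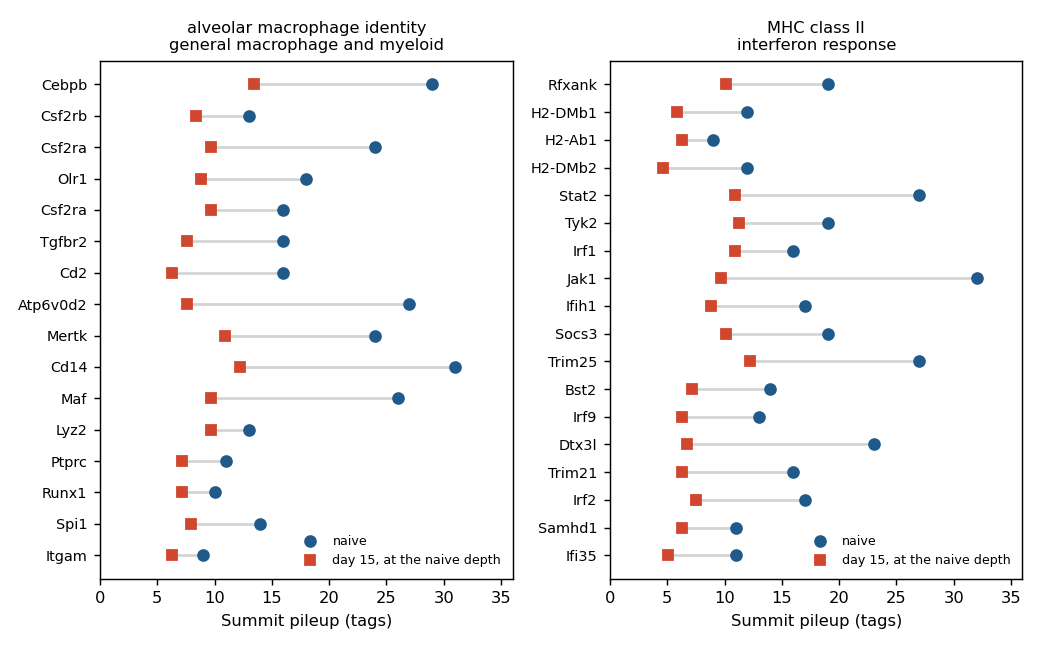
Summit pileup in tags (x axis) of the members at genes of the alveolar and general macrophage lists (left) and of the MHC class II and interferon lists (right), naive as circles and day 15 scaled to the naive depth as squares, with grey lines joining the values of a region. Each square lies left of its circle, from a ratio of 0.28 at Atp6v0d2 to 0.74 at Lyz2, and Csf2ra has 2 regions.

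Chemokine genes were members for 7 of 8 shared genes (87.5%, interval 52.9 to 97.8), the largest share of the 25 lists. Ccl2, a chemokine for monocytes, had 11 naive and 19 day 15 tags, Cxcl2, one for neutrophils, 27 and 28, Ccl9 11 and 14, and the receptors Ccr1 and Ccrl2 13 and 23, and 22 and 22. Ccl3 and Ccl4 were the other members, and Cxcr4 alone was held at day 30. These were weak regions, with a median day 15 -log10 p of 9.72 and none in the strongest bin.

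In NF-kB signalling 15 of 26 genes were members (57.7%), among them the adaptors Traf2, with 29 and 29 tags, and Ticam1, with 22 and 23, the kinase Ripk1, whose stronger region had 29 and 24, and Tab3, with 22 and 24. Nfkbia, the inhibitor of NF-kB, had a member with 30 and 36 tags and another region held at day 30. For T cell regulation, 6 of 8 were members (75.0%, interval 40.9 to 92.9), with 25.0% of genes in the strongest bin. Cd274, the checkpoint ligand PD-L1, had 10 naive and 18 day 15 tags, Lgals9 26 and 20, Tnfrsf14 27 and 32 and the inhibitory receptor Siglece 27 and 25. In TGF-beta and matrix genes 11 of 15 were members (73.3%) and 6.67% had a region in the strongest bin. The members included the receptors Acvr2a, with 27 and 24 tags, Bmpr2, with 18 and 20, and Acvr1, with 20 and 17.

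Glycolysis and hypoxia genes were members for 17 of 21 (81.0%, interval 60.0 to 92.3). Hk2, a hexokinase, had 28 and 29 tags, Pfkfb3, which makes the activator of phosphofructokinase, 24 and 26, Pgam1, a mutase of glycolysis, 20 and 25, Arnt, the partner of the hypoxia-inducible factors, 24 and 21, and Ddit4, an inhibitor of mTORC1, 22 and 23. The 4 genes held at day 30 were Pfkp, Pkm, Pdk1 and P4ha1. This list and the interferon list were the 2 of the 25 whose intervals lay wholly above 54.6%. The interferon interval did so only narrowly, from 54.8. With 50% of the shorter peak shared, the interferon count was 12 instead of 14. In the glycolysis list 9.52% of genes had a region in the strongest bin, against 29.0% of all protein-coding genes.

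At the other end stood stress genes. Heat shock and chaperone genes were members for 8 of 34 (23.5%, interval 12.4 to 40.0), and unfolded protein and integrated stress genes for 7 of 28 (25.0%, 12.7 to 43.4). The member chaperones included Bag3, a co-chaperone of HSP70, with 27 and 23 tags, Ahsa1, an activator of HSP90, with 27 and 24, Fkbp4 with 18 and 24, and the chaperonin subunits Cct6a and Cct8 with 28 and 24, and 22 and 21. Most chaperonin subunits and Hsf1, Hspa5 and Hspa8 were in all 3 lists. Of the unfolded protein genes Herpud1, with 32 and 32 tags, Sdf2l1, with 26 and 25, and Eif2ak4, a kinase that senses amino acid shortage, with 29 and 22, were members. In these lists 47.1% and 46.4% of the shared genes had a region in the strongest bin.

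The AP-1 and immediate early list gave 8 of 22 (36.4%, interval 19.7 to 57.0), with 40.9% of genes in the strongest bin. Its members included phosphatases that end MAP kinase signalling: Dusp6 with 41 and 49 tags, Dusp5 with 23 and 27 and Dusp1 with 20 and 33. Egr1, a zinc finger factor, had 29 and 37 tags, and Fosl2, an AP-1 subunit, 27 and 41. The AP-1 genes Fos, Jun and Jund were in all 3 lists with 18, 25 and 22 day 30 tags. Translation factors gave 16 of 43 (37.2%, interval 24.4 to 52.1), with Eif2b2, a subunit of the exchange factor for eIF2, at 12 naive and 28 day 15 tags and a scaled ratio of 0.98. The translation factors had a median day 15 -log10 p of 13.1, against 14.2 for all protein-coding genes. In the strongest bin were 27.9% of them, against 29.0%. Genes were not matched by strength, and its part in this count was not tested.

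Several housekeeping lists had intervals that included 54.6%. Cytosolic ribosomal protein genes gave 32 of 55 (58.2%), with Rpl31 at 36 and 24 tags and Rps6 at 29 and 26, and mitochondrial ribosomal protein genes 22 of 40 (55.0%), with Mrpl39 at 27 and 32. Oxidative phosphorylation genes gave 28 of 48 (58.3%), with Uqcrq, of complex III, at 21 and 36 and Sdhb, of complex II, at 20 and 30. Splicing genes gave 32 of 53 (60.4%), with Ptbp1 at 41 and 41, and proteasome genes 17 of 25 (68.0%), with Psma5 at 18 and 21. The start of Ndufa7, of complex I, is shared with the ribosomal protein gene Rps28, so a single region of 10 naive and 21 day 15 tags counts in 2 lists.

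Chromatin regulators gave 20 of 39 (51.3%), with the histone methyltransferase gene Setd2 at 24 and 33 tags, and cell cycle and replication genes 17 of 31 (54.8%), with Cdc25a at 22 and 33 and Cdc6 at 15 and 30. DNA repair genes gave 18 of 41 (43.9%), with Ung, a uracil glycosylase, at 34 and 28. Lysosome genes gave 13 of 26 (50.0%), among them Lipa, the lysosomal acid lipase, at 27 and 29 and the lysosome regulators Mitf (22 and 21), Tfeb and Tfe3. Autophagy genes gave 10 of 24 (41.7%), with Gabarapl2 at 21 and 28. Cholesterol and lipid genes gave 14 of 31 (45.2%), with the lipase gene Lpl at 14 and 26 and the sterol transporter gene Npc1 at 25 and 27.

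**Figure D5:**
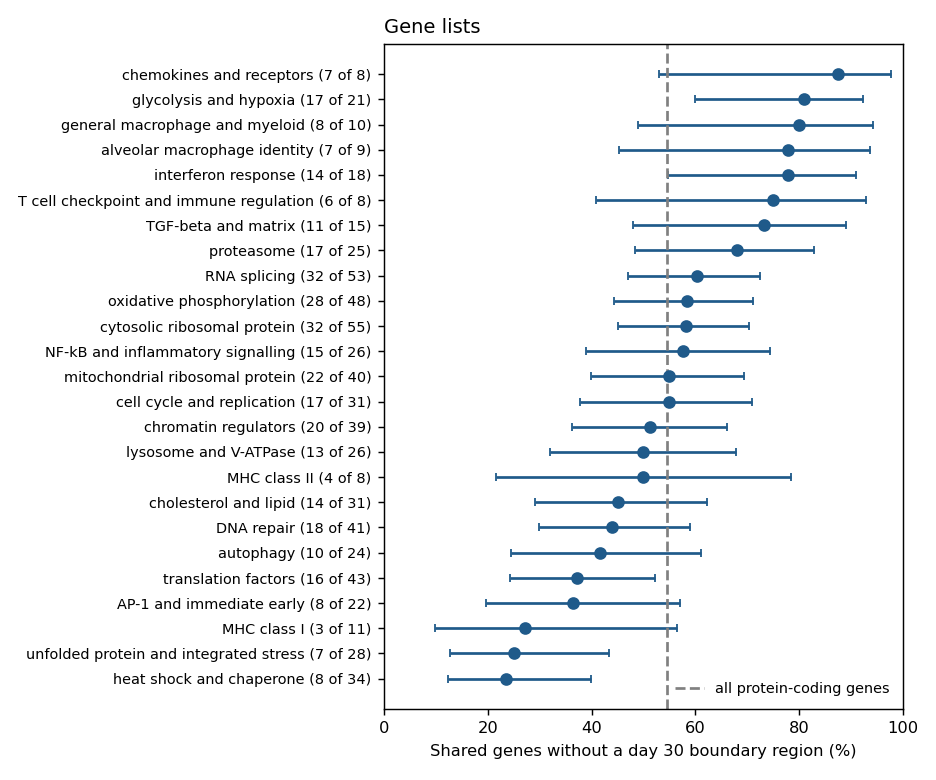
Share of genes with a naive and day 15 boundary region that had no boundary region at day 30 (x axis, percent) for the 25 gene lists, with 95% Wilson intervals and the counts beside each name. The dashed line is the 54.6% of all protein-coding genes, and the lists run from 87.5% for chemokines to 23.5% for heat shock genes.

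By chromosome, the X stood apart, a comparison chosen after its value was seen. Of 122 shared boundary regions on the X, 99 were members (81.1%, interval 73.3 to 87.1), against 3227 of 5575 on the autosomes (57.9%, 56.6 to 59.2), where single chromosomes ran from 46.5% on chromosome 18 to 64.7% on chromosome 17. In bins 1 to 3 of strength the shares were 100%, 90.9% and 81.8% on the X and 88.8%, 81.1% and 71.7% on the autosomes. In bin 4 the share was 85.7% of 28 X regions (interval 68.5 to 94.3) and 52.6% on the autosomes (49.7 to 55.4). The strongest bin had 26.7% of 15 X regions and 19.7% on the autosomes. The intervals overlapped in every bin but bin 4. X-linked members included Atp6ap2, of the proton pump, with 22 naive and 23 day 15 tags, Tab3 with 22 and 24, Hdac6, a cytosolic deacetylase, with 18 and 23, and Acsl4, a fatty acid ligase, with 16 and 21.

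The local background of the X regions was lower than on the autosomes in both lists, a median of 1.13 against 1.64 tags in naive and 1.87 against 2.70 at day 15. The X median at day 15 equals the genome-wide background of that list, a floor below which no background in it lay. The share of all peaks on the X was 2.24% in naive, 1.59% at day 15 and 1.10% at day 30, and the naive list had 1 peak on the Y while the other lists had 0. The sex of the mice is not in the labels used here, and its part in the X values was not tested.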

How the data were processed

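Each of 3 groups of alveolar macrophages (11 samples) had 1 ATAC-seq peak list. The series design says triplicates, but the labels number 4, 4 and 3 samples. The submitters' processing notes name Bowtie2 2.3.4.1, MACS2 2.1.1 and mm10. Not given in the sources used here are settings, read filters, any shift for the transposase and whether samples were pooled.

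The deposited score equals, in nearly all rows, 10 times the -log10 q with its decimals dropped. The authors also deposited the fold over local background (a ratio), the -log10 of the p-value and the -log10 of the q-value of each peak. Column meanings were taken from the values, since the lists have no headers. These values are the authors' own and served to describe, rank and filter peaks within a list.

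Pileup and background were recovered from the fold, (pileup + 1) / (background + 1), and the p-value, the upper Poisson tail, within 0.001 on the -log10 scale. Backgrounds fell on steps of 0.02 tags or on a floor that gives the depth for tags of 200 bp over 10 kb. For 49 naive peaks 2 pairs gave the same p, and the pair at or above the floor was taken. On simulated peaks 99.993%, 99.991% and 100% of pileups came back exactly for 14731 naive, 10861 day 15 and 3352 day 30 peaks.

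Genes came from a RefSeq table (GRCm38.p6, 49997 genes) and starts from a RefSeq promoter table (32851 starts of 27025 genes, 250 bases before to 50 after, none used for chromosome 18). Of 1271 gene list entries 1270 matched. The members, the 31 gene lists and the 21 motifs were chosen with earlier results of these data known. Besides those given with their letters, the motifs searched were a full CREB site (TGACGTCA), an E-box (CACGTG), ZNF143 (ACTACAATT), heat shock (GAANNTTC), BANP (TCTCGCGAG), PPAR (AGGTCAAAG), NRF2 (TGACNNNGC), E2F (TTCCCGCC) and CTCF (CCANNAGGG) sites.

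Named were the 10 members with the highest naive and the 10 with the highest day 15 -log10 p, the 3 with the lowest day 15 q, the 3 just inside 1000 bp, the 3 widest, the members of 4 macrophage, MHC class II and interferon lists in full, and up to 5 genes of every other list by day 15 -log10 p, not all of which are printed. Some items within the rule are not reported here. Genes beyond the rule are named only to say in which lists their regions were. Alternatives changed the overlap, the distance, the gene types, the q threshold, the list length, the gap to day 30 and the chromosomes. Analysis used Python 3.11.15, pandas 2.3.3, numpy 2.4.6 and scipy 1.17.1.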

Additional observations from a re-analysis of the deposited data

How the results depend on the processing

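Requiring 50% of the shorter peak to be shared, a distance of 500 or 2000 bp, protein-coding genes only, a -log10 q of at least 2 or 3, and no day 30 peak within 500 bp left 2984 to 3667 members and a share without a day 30 peak of 57.2% to 59.5%. Autosomes only, chosen after the data were seen, gave 3227 members and 57.9%. Under these settings the median pileups stayed at 17 naive and 19 day 15 tags, and the count of each of the 25 gene lists stayed within 1.5 times its value. Cutting each list to its 3352 strongest peaks, the length of the day 30 list, was different: 464 members were left, 24.9% of the shared boundary regions, with medians of 27 naive and 26 day 15 tags, and all 25 gene list counts were lower, at 0 to 5 genes. This setting removes the weaker naive and day 15 peaks by construction. The CpG-rich share of covered member starts was 77.7% to 79.5% under every setting run. Leaving out replicates could not be done, since each group has 1 list. No paired analysis was possible because the lists carry no replicates. Pileups of 6 to 56 tags limit the precision of every ratio of single regions.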
